A study of Mus musculus with 8 samples.

Results

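The comparison described here asks whether PyMT-1099 mouse breast cancer cells that lack the ether lipid enzyme Agps respond to TGF-β in the same way as the parental cells. PyMT-1099 cells come from a mammary tumour driven in mice by the polyoma middle T oncogene, and they pass through an epithelial to mesenchymal transition when given TGF-β. The 8 libraries of polyadenylated RNA form 4 groups of 2: parental cells and AGPS KO cells, each either untreated or given 2 ng/ml TGF-β for 10 days. For each gene the log2 change with TGF-β in parental cells was subtracted from the log2 change in knockout cells, and the result is called the difference of responses. All 14641 genes that passed a filter on low counts, of 55450 identifiers in the files, were tested, and a gene is called where the p-value adjusted over all of them by the Benjamini-Hochberg method was under 0.05. Both lines carry the polyoma oncogene, all knockout libraries carry the same line tag, and the untreated cells are the only controls. A trait of that knockout line can therefore not be told apart from the loss of Agps. The labels do not name separate cultures for the 2 libraries within each group, so p-values measure only the spread of these libraries and that spread may be technical.

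TGF-β binds a pair of receptor kinases, of which Tgfbr1 phosphorylates SMAD proteins that enter the nucleus and regulate transcription. In epithelial cells prolonged TGF-β lowers cell junction genes and raises genes of matrix, contraction and migration. Agps makes the ether bond of ether lipids in peroxisomes, and ether lipids are a source of the polyunsaturated membrane lipids that are oxidised in ferroptosis.

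Library totals ran from 17007268 to 21311831 counts, replicate libraries correlated across genes at 0.991 to 0.994, and mitochondrially encoded genes held 2.36% to 4.31% of the counts. Levels below are CPM, counts scaled to a common library size after TMM scaling, which corrects for differences in library composition. Summed marker levels, and the ranges of single markers in this paragraph, are CPM of library totals without TMM. Those sums cover all listed markers, whether or not they passed the filter. Of 13 mammary epithelial markers 9 passed the filter. The summed level of all 13 was 6110 to 6680 CPM in untreated parental cells and 3320 to 3540 CPM in treated parental cells. It was 4390 to 4740 CPM in untreated knockout cells and 3300 to 3620 CPM in treated knockout cells. The keratins Krt8 and Krt18 were at 765 to 1250 CPM and 1840 to 2750 CPM. The epithelial markers Epcam and Cldn7 had 0 counts in all libraries, which allows up to 3 counts in each. Krt19 was at 137 to 1820 CPM, Cdh1 at 51.5 to 704 CPM, Krt7 at 61.2 to 249 CPM and Muc1 at 18.7 to 158 CPM. Elf5, Esr1 and Gata3 were at no more than 0.225, 0.0498 and 1.7 CPM, and Krt5 and Krt14 at no more than 5.47 and 10.9 CPM. The sums thus rest mostly on Krt8, Krt18, Krt19 and Cdh1 and do not show a mammary identity. Summed immune markers were at 50.3 to 71.3 CPM, with Cd3e and Adgre1 at 0 and Ptprc at no more than 0.292 CPM. In bulk libraries fewer cells of a kind and less RNA per cell cannot be told apart. Of 12 fibroblast and adipocyte markers 2 were tested and 0 called in the difference by edgeR, DESeq2 or limma voom (1 at an unadjusted p under 0.05), with sums of 1.04 to 4.04 CPM.

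TGF-β called 6228 genes in parental cells (42.5%), with 21.3% of all genes rising and 21.2% falling, and 6064 in knockout cells (41.4%), with 20.9% rising and 20.6% falling. Of the 4617 genes called in both lines 4583 (99.3%) moved in the same direction. The 2 responses share no library, and across the 14641 genes they correlated at r = 0.887. Across the 9326 genes with a mean log2 CPM of at least 3 the value was 0.935. Genes are not independent replicates, so these values are a description.

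The difference of responses was called for 352 genes, 2.4% of those tested. It was positive for 183 (1.25%) and negative for 169 (1.15%). Its size in called genes had a median of 1.16 on the log2 scale, with 5% of them below 0.58 and 5% above 3.26, and 204 genes (1.39%) passed both the test and a size of 1, 0.744% of all genes upwards and 0.649% downwards. Over all genes tested the median difference was 0.01, and 2032 of the 14641 genes had an unadjusted p under 0.05. All 352 called genes lay among the 7675 that responded in at least 1 line (4.59% of those). None of the 6966 genes called in neither line was called in the difference. That split is a description and no separate result. The difference is made from the same responses, so a called difference needs a sizeable response in at least 1 line.

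**Figure D1:**
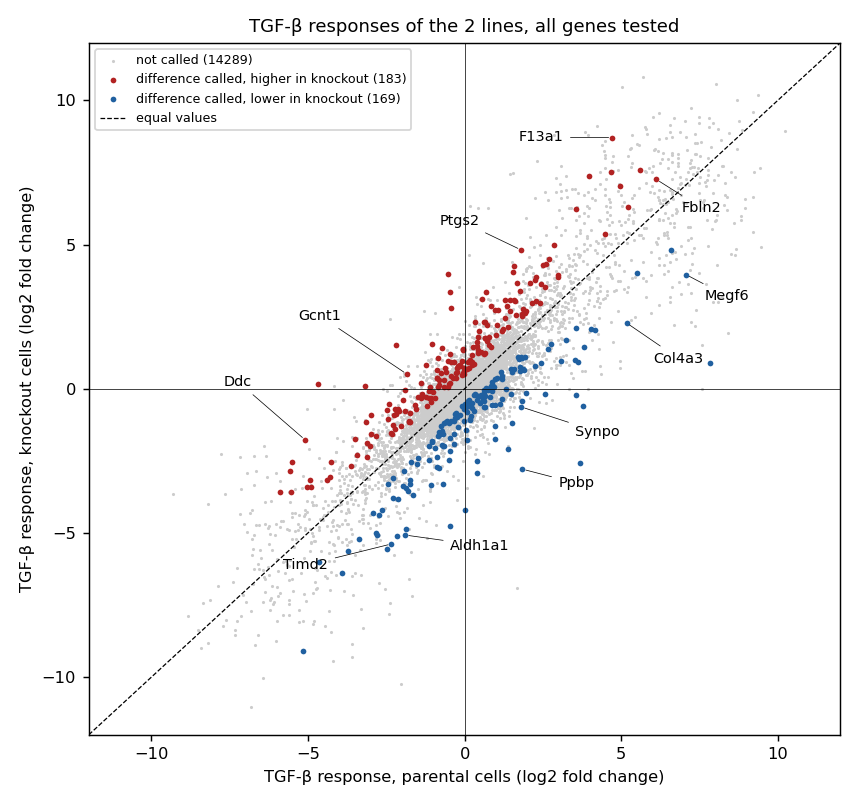
The log2 change with TGF-β in parental cells (x axis) is plotted against that in knockout cells (y axis) for all 14641 genes tested, with the 352 called genes in colour and the line of equal values dashed. Most grey points follow the line (r = 0.887 over all genes), the 183 red genes lie above it and the 169 blue genes below it.

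Treated libraries weighed most on this count. Leaving out 1 untreated library gave 289 to 401 called genes. Without the first or the second treated parental library 110 and 131 genes were called, and without the first or the second treated knockout library 161 and 114. Of the 352 genes between 106 and 149 were among the calls of those 4 fits. In all 8 such fits every shared gene kept its sign. Among the 78 called genes named below, 35 kept the call in all 15 alternative settings, with a highest adjusted p of 0.0494, and 43 lost it in at least 1. Apart from single libraries, limma voom ended the calls of Ccl20, Col6a1, Fhl1, Fzd1, Krt7, Mmp10, Serpina1a, Ugt2b36 and Wnt9a, DESeq2 those of Fzd1 and Steap4, and a minimum count of 50 those of Col6a1, Krt8, Mmp10 and Steap4. Another scaling ended the calls of Krt7 (RLE), F11r and Krt8 (upper quartile).

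The most common form of difference was a response in the same direction that was larger in knockout cells. It covered 131 of the 352 genes (37.2%), of which 69 rose and 62 fell in both lines. In 79 genes (22.4%) both lines responded in the same direction and the knockout cells less, 33 of them rising and 46 falling. The response was called only in knockout cells for 60 genes (17%; 32 rose and 28 fell) and only in parental cells for 54 genes (15.3%; 33 rose and 21 fell). The remaining 28 genes (7.95%) changed in opposite directions: 15 fell in parental and rose in knockout cells, and 13 did the reverse.

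The difference of responses equals the gap between the lines with TGF-β minus the gap without it. The lines were called different only with TGF-β for 162 of the 352 genes (46%) and only in the untreated state for 98 (27.8%). They were called different in both states in the same order for 48 genes (13.6%) and in both states with the order turned for 44 (12.5%). Across all genes the lines were called different in 2000 genes untreated (13.7%) and in 2618 with TGF-β (17.9%). Of the genes with a positive difference 31.7% were called apart only untreated and 41.0% only with TGF-β. The shares were 23.7% and 51.5% for genes with a negative difference. These splits are descriptions, since the gaps and the difference are made from the same libraries. A gap that missed the threshold in a state is not shown to be absent there. For Fgf2 and Wnt9a, called apart only with TGF-β, the untreated gaps of -1.49 (adjusted p = 0.0544) and 0.99 (adjusted p = 0.0536) were larger than the treated ones of 1.20 and -0.48, and for Mmp10 the gaps were -1.26 and 1.42.

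**Figure D2:**
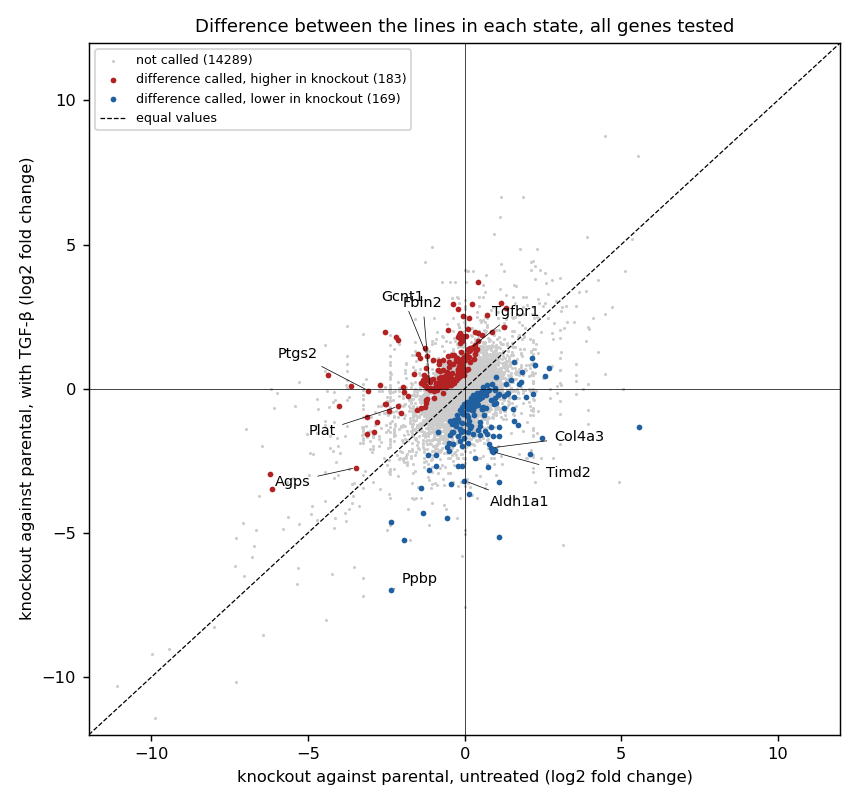
The log2 ratio of knockout to parental cells is plotted for the untreated state (x axis) and with TGF-β (y axis) for all genes tested, with the called genes in colour. Genes near the horizontal axis line, such as Ptgs2 and Fbln2, were called different between the lines only before treatment, and genes near the vertical axis line, such as Aldh1a1 and Tgfbr1, only with TGF-β.

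Agps itself (chr2:75832177-75931350, plus strand, GRCm38) was low in the knockout libraries in both states and moved in opposite directions. Parental cells had 357 and 329.8 CPM untreated and 265 and 266 CPM with TGF-β, and knockout cells 32.9 and 29.3 CPM and 43.9 and 35.6 CPM. The transcript was thus present but reduced in all 4 knockout libraries, with no overlap with the parental ones. It fell by 0.37 on the log2 scale in parental cells and rose by 0.36 in knockout cells, a difference of 0.73 (SE 0.15, 95% interval 0.39 to 1.07, adjusted p = 0.0332). The call was lost on leaving out the first untreated or either treated parental library, the second untreated knockout library or the first treated knockout library, with values of 0.57 to 0.88 and adjusted p up to 0.147. The other ether lipid genes were not called, so 1 of 19 tested members of that list was called, and the intervals of 10 members lay within 0.5 of 0.

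Genes of the TGF-β pathway itself differed at 4 of 29 tested members for ligands, receptors and SMADs, with 2 higher and 2 lower, and at 1 of 15 feedback genes. The receptor gene Tgfbr1 (chr4:47353222-47414931) was at 148 and 144 CPM in untreated and 178 and 208 CPM in treated parental cells, against 165 and 165 CPM and 533 and 484 CPM in knockout cells. The lines were not called different before treatment, and the treated knockout libraries lay above all others. The rise was 0.41 in parental and 1.62 in knockout cells on the log2 scale, a difference of 1.22 (SE 0.13, interval 0.92 to 1.51, adjusted p = 0.000979). The other receptor, Tgfbr2, fell by 1.39 in parental and by 1.69 in knockout cells and was not called in the difference (-0.29, adjusted p = 0.292).

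Ltbp1, which holds latent TGF-β in the matrix, went from 8.43 and 7.91 to 299 and 308 CPM in parental cells and from 4.15 and 4.45 to 329.5 and 348 CPM in knockout cells. Knockout cells started lower and ended at a level not called different, so the rise was larger by 1.08 (SE 0.14, adjusted p = 0.00335). Itgb6, the subunit of an integrin that releases active TGF-β from its latent form, differed in the opposite direction. It was at 42.9 and 41.9 CPM and 33.5 and 33.8 CPM in untreated and treated parental cells and at 46.2 and 44.9 CPM and 12.6 and 11.4 CPM in knockout cells. Its fall was thus -0.33 in parental and -1.92 in knockout cells (difference -1.59, SE 0.14, adjusted p = 0.000402). The ligand Tgfb2 fell by 0.59 in knockout cells only, with levels of 53.7 and 52.4 CPM untreated and 36.8 and 33.4 CPM treated beside 35.1 and 36.3 CPM and 37.4 and 38.7 CPM in parental cells. Its difference was -0.69 (adjusted p = 0.0263). That call was lost without any of the treated libraries and without the first untreated library of either line, with adjusted p up to 0.146.

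Among feedback genes, Fst, whose product follistatin binds and blocks activins, rose less in knockout cells. It went from 7.22 and 6.85 to 39.1 and 37.7 CPM in parental cells and from 5.84 and 9.98 to 13.5 and 16.4 CPM in knockout cells (difference -1.54, SE 0.29, adjusted p = 0.0214). Leaving out any of the 4 treated libraries ended the call, with adjusted p up to 0.104. Smad7, the inhibitory SMAD, could not be placed. Its levels were 163 and 32.2 CPM in the untreated parental libraries, 159.6 and 118 CPM in treated parental, 34.6 and 38.7 CPM in untreated knockout and 141 and 126 CPM in treated knockout libraries. The first untreated parental library stood at the level of the treated ones. The difference was 1.36 with an interval of -0.15 to 2.87, and it was -0.24 without the first untreated parental library and 2.10 without the second, so its sign rests on those libraries. It passed the threshold without the second and, at 1.38, with no filter on low counts (adjusted p = 1.45e-15). The main fit of the same 8 libraries gave an adjusted p of 0.42. With 163 and 32.2 CPM in the untreated parental libraries, the p-value with no filter cannot be read as a measure of their spread. The same caution holds below for other genes called with no filter but not in the main fit.

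Direct targets of TGF-β signalling gave 4 called of 23 tested (17.4%), all of them higher. The share was 2.4% over all genes and 4.59% over genes called in at least 1 line. The median difference was 0.59 over the list beside 0.01 over all genes. In untreated cells 12 of the 23 were called different between the lines, beside 13.7% of all genes. Timp1, an inhibitor of matrix metalloproteinases, rose from 11.5 and 8.38 to 31.9 and 32.1 CPM in parental cells and from 1.84 and 1.62 to 21 and 23.2 CPM in knockout cells. The knockout libraries were below the parental ones in both states, and the gap was -2.52 untreated and -0.53 with TGF-β on the log2 scale. Its difference of responses was 1.99 (SE 0.25, adjusted p = 0.00218). Hmga2, a chromatin protein that takes part in epithelial to mesenchymal transition, was at 16.9 and 16.1 CPM and 21.4 and 22.1 CPM in the untreated lines, not called different, and rose to 100 and 96.2 CPM in parental and 290.2 and 217 CPM in knockout cells. Its difference was 0.97 (adjusted p = 0.0212), lost without either treated parental library (adjusted p up to 0.0967).

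Matrix proteases and their inhibitors gave 4 called of 20 tested, again all higher, with a list median of 0.70. Timp1 is a member of this list too. Plat, the tissue plasminogen activator, was at 219 and 244 CPM in untreated parental cells and 50.8 and 56.2 CPM in untreated knockout cells. It fell to 169.5 and 149 CPM in treated parental cells and rose to 105 and 103 CPM in treated knockout cells. The difference was 1.501 (SE 0.14, interval 1.19 to 1.81, adjusted p = 0.000464), and the knockout cells stayed below the parental cells in both states. Mmp10, the metalloproteinase stromelysin 2, was low, at 0.896 and 0.703 CPM and 0.483 and 0.186 CPM untreated, and reached 8.69 and 10.3 CPM in parental and 31.1 and 19.7 CPM in knockout cells. Its difference of 2.68 (adjusted p = 0.0469) was lost without any of 6 libraries (both untreated and both treated parental libraries, the second untreated and the first treated knockout library), with adjusted p up to 0.168.

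**Figure D3:**
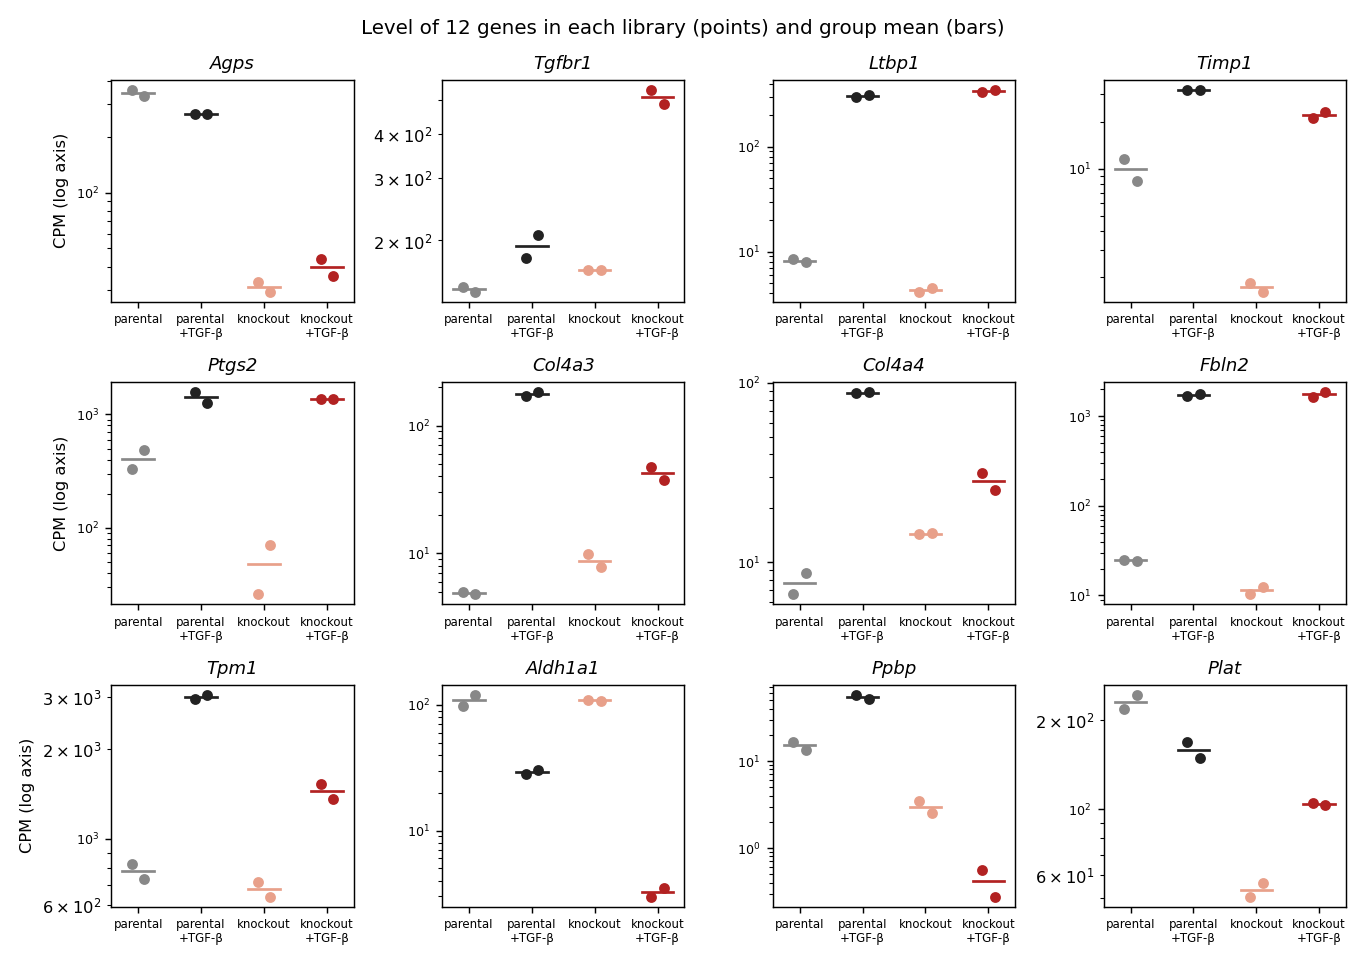
CPM on log axes of 12 genes in each library (points) with the mean of the 2 libraries of each group (bars). Ptgs2 and Fbln2 overlapped between the treated lines and were lower in untreated knockout cells, Tgfbr1 and Aldh1a1 were called different only with TGF-β, and Col4a3 and Col4a4 changed order.

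Collagens were the list with 6 of 22 tested members called (27.3%), 4 higher and 2 lower, and with a median difference of 0.22. Of the 22 genes 21 rose with TGF-β in parental and 20 in knockout cells. The 2 lower genes are Col4a3 and Col4a4, which encode basement membrane chains that assemble together in kidney and a few other tissues. They lie head to head on chromosome 1, Col4a4 at chr1:82448423-82586849 on the minus strand and Col4a3 at chr1:82586921-82722059 on the plus strand. Only the following stretch parts their annotated starts, shown because both genes carry the same pattern of values (RefSeq sequence on GRCm38.p6, chr1:82586850-82586920, minus strand, 5′ to 3′, so that it runs towards Col4a4).

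Col4a4 to Col4a3: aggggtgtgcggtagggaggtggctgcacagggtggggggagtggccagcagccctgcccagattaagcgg

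Those 71 bases held none of 6 motifs searched on both strands (TGANTCA for AP-1, TGACGTCA for CRE, CAGAC as the CAGA box, the E-box CAGGTG, the GC box GGGCGG and the TATA box TATAAA), which says only that these letters are not in this window. Col4a3 went from 5.01 and 4.80 to 172 and 182 CPM in parental cells and from 9.80 and 7.75 to 47.6 and 37.6 CPM in knockout cells. The rise was 5.17 in parental and 2.28 in knockout cells (difference -2.89, SE 0.21, interval -3.36 to -2.42, adjusted p = 0.000134). Col4a4 went from 6.64 and 8.67 to 88 and 88.6 CPM and from 14.3 and 14.5 to 31.6 and 25.4 CPM (difference -2.55, SE 0.20, adjusted p = 0.000134). For both genes the knockout libraries lay above the parental ones untreated and below them with TGF-β, without overlap. The more widely expressed basement membrane chains Col4a1 and Col4a2 showed differences of -0.04 (interval -0.31 to 0.24) and -0.18 (-0.45 to 0.09) and were not called.

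Col15a1, a collagen of the basement membrane zone, differed in the other direction. It rose from 15.1 and 14.5 to 17.4 and 21.2 CPM in parental and from 27.9 and 26.1 to 74.2 and 75.5 CPM in knockout cells, which were higher in both states (difference 1.09, SE 0.17, adjusted p = 0.00692). Col6a1, a chain of collagen VI, rose from 2.48 and 2.81 to 75 and 90.5 CPM and from 0.773 and 0.557 to 66.4 and 107 CPM. Its treated libraries overlapped between the lines and its difference of 2.05 (adjusted p = 0.0454) was kept without the first treated knockout library only, and was lost with limma voom at an adjusted p of 0.198. Col27a1 differed by 0.90 (adjusted p = 0.0201, lost without either treated parental or the first treated knockout library, up to 0.109). Col18a1, named after its values were seen as the remaining called member, differed by 0.59 (adjusted p = 0.0495).

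Matrix proteins and crosslinking enzymes gave 3 called of 26, all higher, although the list median of 0.06 was near that of all genes. Fbln2, an elastic fibre and basement membrane glycoprotein, rose from 25 and 24.4 to 1683 and 1764 CPM in parental cells and from 10.4 and 12.6 to 1662 and 1857 CPM in knockout cells. Both lines reached the same treated range from untreated levels that did not overlap (difference 1.14, SE 0.15, adjusted p = 0.00358). Spp1, osteopontin, rose from 670.1 and 853 to 1192 and 1209 CPM and from 391 and 417 to 1374 and 1386 CPM (difference 1.12, SE 0.16, adjusted p = 0.0042). A transcript annotated on the same strand, Gm42793, covers 18.8% of its exonic bases.

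Of 16 integrins 2 were called, Itgb6 lower as above and Itgb4 higher. Itgb4, which pairs with the alpha 6 subunit to bind laminin in hemidesmosomes, was at 143 and 147 CPM and 67.4 and 70.8 CPM in untreated and treated parental cells and at 105 and 119 CPM and 77.9 and 83.7 CPM in knockout cells. It fell in both lines and less in knockout cells (0.60, adjusted p = 0.0384), a call that held without the second untreated knockout library and was lost without each of the other 7 (up to 0.201). Itga5, a fibronectin receptor subunit, rose by 3.69 and 3.65 in the 2 lines, with a difference of -0.03 and an interval of -0.38 to 0.32. Outside the lists, Megf6, a secreted protein with EGF-like repeats, rose from 1.16 and 0.937 to 150.0 and 135 CPM in parental and from 2.56 and 1.44 to 26.9 and 35.2 CPM in knockout cells (difference -3.12, SE 0.37, adjusted p = 0.0017). Tinag, a basement membrane glycoprotein, fell from 12 and 14.8 to 7.15 and 9.30 CPM and from 12.9 and 12.5 to 1.21 and 1.33 CPM (difference -2.61, SE 0.29, adjusted p = 0.00101).

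Contractile genes and targets of SRF, the serum response factor, were called lower at 3 of 25 tested members and higher at 0, with a list median of -0.28. Of the 25 genes 20 rose in parental and 18 in knockout cells. Between the treated lines 16 were called different, beside 17.9% of all genes. Tpm1, an actin-binding tropomyosin, rose from 827 and 736 to 2948 and 3044 CPM in parental cells and from 719.5 and 641 to 1534 and 1357 CPM in knockout cells. The lines were called apart only with TGF-β, with a difference of -0.85 (SE 0.15, adjusted p = 0.012). The smooth muscle calponin Cnn1 rose from 1.58 and 1.82 to 14.4 and 14.2 CPM and from 2.37 and 2.41 to 5.16 and 4.10 CPM (difference -2.11, SE 0.29, adjusted p = 0.00362), and Cnn2, a more widely expressed calponin, differed by -0.59 (adjusted p = 0.022). Tpm1 lost the call without either treated parental or the second treated knockout library (up to 0.0892). Cnn2 lost it without any treated library, the second untreated parental or the first untreated knockout library (up to 0.125).

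Acta2, smooth muscle actin, was at 0.791 and 0.586 CPM untreated and 73.9 and 76.6 CPM with TGF-β in parental cells, and at 0.193 and 0.464 CPM and 10.1 and 5.04 CPM in knockout cells. The treated parental libraries were above the treated knockout libraries without overlap, while the untreated libraries held few counts. Its rise of 6.75 in parental and 4.49 in knockout cells gave a difference of -2.26 with a wide interval of -4.01 to -0.51 and was not called (adjusted p = 0.21). Without the second untreated knockout library the difference was -1.498. It was called with no filter on low counts (-2.24, adjusted p = 0.0028) and without the first treated knockout library (-2.85, adjusted p = 0.0463). Tagln, another smooth muscle gene, showed a difference of 0.02 (-0.80 to 0.84). Synpo, which encodes the actin-associated protein synaptopodin, rose in parental cells from 14.8 and 22.2 to 64.4 and 64.9 CPM and fell in knockout cells from 37 and 42.6 to 27.8 and 23.6 CPM (difference -2.44, SE 0.23, adjusted p = 0.000518).

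Mesenchymal genes were called lower at 3 of 20 tested and higher at 0. Cdh2, N-cadherin, rose from 165 and 158 to 519 and 564 CPM in parental and from 195 and 175 to 392 and 358 CPM in knockout cells, a difference of -0.72 (SE 0.13, adjusted p = 0.0156). The matricellular protein Tnc rose from 59.1 and 90.6 to 502 and 516 CPM and from 128 and 138 to 417 and 362 CPM (difference -1.22, SE 0.22, adjusted p = 0.0165). Ddr2, a collagen receptor kinase, was at 24.7 and 41 CPM and 40.8 and 44.8 CPM in parental cells, a change that was not called, and fell from 26.1 and 23 to 4.75 and 3.77 CPM in knockout cells (difference -2.90, SE 0.31, adjusted p = 0.000776). The Ddr2 call held in all settings. Cdh2 lost the call without either treated parental or the second treated knockout library (up to 0.117), and Tnc without any of the 4 treated libraries (up to 0.129).

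Of the usual readouts of the transition, Vim, Fn1, Cdh1, Zeb1 and Zeb2 were not called in the difference. The picture was mixed, since Cdh2, given above, was called lower (-0.72, adjusted p = 0.0156). Acta2, also given above, was not called, with an interval of -4.01 to -0.51. Vim, vimentin, rose by 1.12 in parental and 1.10 in knockout cells, with a difference of -0.03 and an interval of -0.33 to 0.27 that lies within 0.5 of 0. Fn1, fibronectin, rose from 386 and 463 to 8093 and 7830.0 CPM and from 519 and 532 to 7556 and 7430.0 CPM, with a difference of -0.40 (-0.72 to -0.08, adjusted p = 0.236). Cdh1, E-cadherin, fell from 582 and 702 to 128 and 139.9 CPM and from 287 and 317 to 52.3 and 52.4 CPM. Knockout cells were lower in both states, by -1.09 untreated and -1.35 with TGF-β on the log2 scale, and the difference was -0.27 (-0.59 to 0.06). The repressors of E-cadherin Zeb1 and Zeb2 gave -0.25 (-0.57 to 0.07) and -0.77 (-1.27 to -0.27, adjusted p = 0.128). With no filter on low counts Fn1 (-0.38, adjusted p = 0.0119) and Zeb2 (-0.75, adjusted p = 0.00796) were called, and so was Zeb2 without the first treated knockout library (-1.02, adjusted p = 0.0418). Of 14 tested transcription factors of the transition 1 was called, Hmga2, with 7 at an unadjusted p under 0.05. Of 12 epithelial regulators 0 were called by edgeR, with 3 at an unadjusted p under 0.05, 1 called by DESeq2 and 0 by limma voom. Over all genes 2032 of 14641 had an unadjusted p under 0.05.

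**Figure D4:**
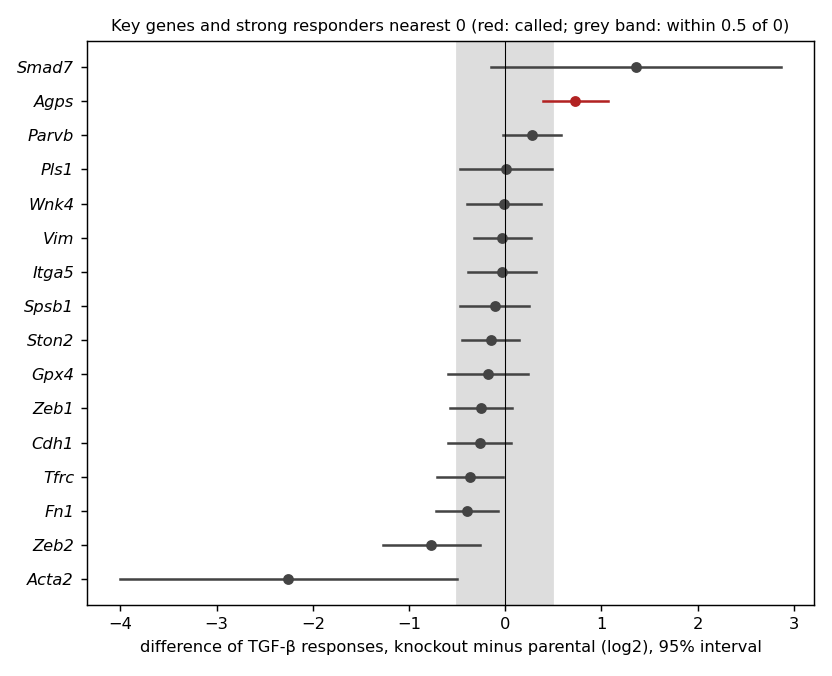
Difference of responses (knockout minus parental, log2) with its 95% interval for 10 key genes and the 6 genes changed by at least 3 in both lines with intervals nearest 0, called genes in red and the band within 0.5 of 0 in grey. The interval of Vim lies inside the band, that of Agps does not include 0, and those of Smad7 and Acta2 span more than 3 log2 units.

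Epithelial adhesion and junction genes gave 2 called of 21. F11r, the tight junction protein JAM-A, was at 184 and 178 CPM and 179 and 178 CPM in parental cells, where no change was called, and rose from 178 and 175 to 240.1 and 261 CPM in knockout cells (difference 0.52, adjusted p = 0.0404). Leaving out any 1 of the 8 libraries ended that call (up to 0.187). Perp, a desmosome protein, fell in both lines, from 72.2 and 72.2 to 29.5 and 36.6 CPM and from 77.1 and 79.7 to 13 and 15.5 CPM (difference -1.34, SE 0.17, adjusted p = 0.00298). Of 9 keratins 2 were called. Krt8 fell from 1249 and 1035 to 782 and 845 CPM in parental cells and was at 833 and 759.9 CPM and 872 and 903 CPM in knockout cells (difference 0.65, adjusted p = 0.0464), and 26.9% of its 50-base sequences occur in other genes. Krt7 rose from 117 and 123 to 238 and 254 CPM and from 72.5 and 60.6 to 81.1 and 93 CPM (difference -0.65, adjusted p = 0.0495). The Krt8 call held without the second untreated parental or first untreated knockout library and was lost without each of the other 6 (up to 0.226), and the Krt7 call held only without the second untreated knockout library (up to 0.224). Muc1, an epithelial surface mucin, fell from 155 and 158 to 19.1 and 19.5 CPM and from 83.6 and 91.6 to 23.2 and 21.5 CPM and was not called different between the treated lines (difference 1.05, SE 0.14, adjusted p = 0.00274).

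Growth factor receptors and ligands were called at 6 of 25 tested members (24%), 2 higher and 4 lower. The ligand Fgf2 rose from 0.949 and 1.76 to 3.07 and 5.06 CPM in parental and from 0.483 and 0.464 to 10.2 and 8.31 CPM in knockout cells (difference 2.68, SE 0.53, adjusted p = 0.0246). The receptor gene Fgfr2 fell from 147 and 152 to 38.6 and 38.9 CPM and from 175 and 186 to 25 and 25.2 CPM (difference -0.90, SE 0.12, adjusted p = 0.00351). Btc, betacellulin, a ligand of the EGF receptor, fell from 8.96 and 11.1 to 2.54 and 3.46 CPM and from 32.3 and 35 to 3.44 and 3.33 CPM, with overlapping treated levels and higher untreated levels in knockout cells (difference -1.56, SE 0.27, adjusted p = 0.0119). Nrg1, neuregulin, a ligand of the ERBB3 and ERBB4 receptors, was at 67.5 and 79.4 CPM and 83.6 and 81.2 CPM in parental cells, where no change was called, and fell from 57 and 74.3 to 32.1 and 30.3 CPM in knockout cells (difference -1.24, SE 0.19, adjusted p = 0.00603). The 2 other called members, named after their values were seen, were the receptor Egfr at -0.68 (adjusted p = 0.0454) and its ligand amphiregulin, Areg, at 1.69 (adjusted p = 0.0248). Fgf2 lost the call without the second untreated or first treated parental library, the first untreated or either treated knockout library (up to 0.0951), Btc without the second treated parental or either treated knockout library (up to 0.0867), and Nrg1 without the second treated knockout library (0.054).

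Wnt and YAP genes were called at 4 of 20, 1 higher and 3 lower. The ligand Wnt7b rose from 173 and 181 to 317 and 289 CPM in parental cells and from 90 and 101 to 315 and 347 CPM in knockout cells (difference 1.02, SE 0.13, adjusted p = 0.0029). Wnt4 rose from 10.9 and 8.90 to 28.5 and 27.4 CPM in parental cells and showed no called change in knockout cells, at 4.88 and 4.22 CPM and 4.05 and 3.88 CPM (difference -1.69, SE 0.23, adjusted p = 0.00358). Wnt9a and the receptor Fzd1 differed by -1.47 (adjusted p = 0.0462) and -1.98 (adjusted p = 0.0469). Untreated Fzd1 was at 0.264 and 0.176 CPM in parental and 1.64 and 1.30 CPM in knockout cells. The Wnt9a call held without the first untreated knockout library only and the Fzd1 call without the second only, with adjusted p up to 0.179 and 0.164 on leaving out others.

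Genes induced by ERK signalling and the AP-1 transcription factor family were called higher at 3 of 28 and lower at 0, with a list median of 0.34. Fosl1, an AP-1 subunit, fell in parental cells from 83.6 and 68.1 to 47.8 and 50.4 CPM and rose in knockout cells from 28.2 and 47.7 to 60.7 and 64.6 CPM (difference 1.35, SE 0.27, adjusted p = 0.0264). Exons of Ccdc85b on the opposite strand cover 57.2% of its exonic bases, and no source used here says whether the counting used strand. The immediate early gene Ier2 fell in both lines, from 452 and 404 to 92.7 and 73.2 CPM and from 179 and 182 to 55.4 and 70.3 CPM (difference 0.84, adjusted p = 0.0418). Ier3, which regulates survival under stress, had no called change in parental cells, at 536 and 431 CPM and 464 and 369.6 CPM, and rose from 234 and 259 to 389.7 and 458 CPM in knockout cells (difference 0.995, adjusted p = 0.0221). Fosl1 lost the call without any treated library (up to 0.16). Ier2 lost it without the first untreated or second treated parental library, either untreated or the second treated knockout library (up to 0.193). Ier3 lost it without the second treated parental or either treated knockout library (up to 0.142). The other AP-1 genes Jun, Junb and Fos showed 0.26 (-0.17 to 0.69), 0.93 (0.24 to 1.61) and 0.80 (0.13 to 1.47) and were not called.

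The motif TGANTCA, a loose form of the AP-1 site with any middle base, was searched in the 250 bases before the RefSeq starts (GRCm38.p6). This motif is its own reverse complement. It was present for 19 of 130 matched genes called higher (14.6%), 10 of 127 called lower (7.87%), 613 of 9948 tested (6.16%) and 2113 of 27025 genes in the table (7.82%). A match is a description and no site is implied. Among the named genes called higher, the following 6 held it. They are shown with the motif in capitals, 5′ to 3′ on the strand of the gene, because these are the letters behind that count. Ddc and Sprr1b hold TGAATCA and the others TGACTCA or TGAGTCA, and the counts were not split by the middle base.

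Col6a1: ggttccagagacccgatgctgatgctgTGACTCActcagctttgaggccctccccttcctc
Ddc: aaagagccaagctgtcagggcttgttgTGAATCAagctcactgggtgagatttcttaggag
F11r: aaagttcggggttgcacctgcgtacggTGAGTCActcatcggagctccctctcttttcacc
Mmp10: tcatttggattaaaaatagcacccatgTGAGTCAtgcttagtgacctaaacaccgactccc
Serpina1a: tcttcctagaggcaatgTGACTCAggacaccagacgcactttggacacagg
Sprr1b: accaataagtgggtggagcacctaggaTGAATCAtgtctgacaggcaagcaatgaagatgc

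Their positions are chr10:76726101-76726161 (minus strand, motif 90 to 84 bases before the start), chr11:11898240-11898300 (minus, 129 to 123), chr1:171437425-171437485 (plus, 109 to 103), chr9:7502252-7502312 (plus, 63 to 57), chr12:103863819-103863869 (minus, 233 to 227) and chr3:92438857-92438917 (minus, 111 to 105). The shares of the other motifs in genes called higher, called lower and tested were 48.5%, 45.7% and 45.7% for CAGAC, 20%, 16.5% and 18.1% for CAGGTG, and 2.31%, 1.57% and 3.09% for TGACGTCA. They were 12.3%, 15.7% and 8.33% for TATAAA and 56.2%, 58.3% and 62.7% for GGGCGG.

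Ptgs2 (chr1:150100031-150108227), cyclooxygenase 2, which makes prostaglandins and is listed here among ferroptosis genes because it rises in that process, was at 328 and 484 CPM in untreated parental and 26.1 and 70 CPM in untreated knockout cells. With TGF-β it reached 1565 and 1271 CPM and 1352 and 1354 CPM, so the lines were called apart only before treatment. The rise was 1.81 in parental and 4.81 in knockout cells (difference 3.01, SE 0.46, interval 1.99 to 4.02, adjusted p = 0.00732). The call was lost without the first and without the second treated knockout library. Over all fits without 1 library the difference was 2.47 to 3.89.

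Ppbp, a platelet chemokine that is not in the list of chemokines and cytokines, had the largest negative difference among named genes. It rose from 16.7 and 13.5 to 57.8 and 51.1 CPM in parental cells and fell from 3.43 and 2.51 to 0.556 and 0.277 CPM in knockout cells, so the groups did not overlap and the ratio between the lines widened from -2.35 to -6.99 on the log2 scale (difference -4.64, SE 0.37, adjusted p = 0.000134). Ccl20, the ligand of Ccr6, fell from 88.4 and 137 to 13.9 and 16 CPM and from 65.3 and 53.6 to 2.88 and 3.16 CPM. It was the 1 called gene of 20 in that list (difference -1.38, adjusted p = 0.0427), and it lost the call with limma voom and without any of the 4 treated libraries or the first untreated knockout library (up to 0.197).

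Of 5 tested immune markers 3 were called: Csf1r, the receptor of macrophage colony stimulating factor, lower, and Cd14 and S100a8 higher. Csf1r fell from 31.3 and 30.6 to 21.6 and 23.1 CPM in parental and from 29.6 and 31.1 to 7.28 and 6.43 CPM in knockout cells (difference -1.67, SE 0.17, adjusted p = 0.000555), and Hmgxb3 covers 15.1% of its exonic bases on the opposite strand. Cd14, a lipopolysaccharide receptor, was at 35.8 and 29.6 CPM and 30.4 and 29.3 CPM in parental cells and rose from 16.4 and 17.2 to 30 and 29.9 CPM in knockout cells (difference 0.97, adjusted p = 0.0124, lost without any treated library, up to 0.0753). S100a8, named after its values were seen, held 7 counts in the 2 treated parental libraries and 99 in the treated knockout libraries. The summed immune level was 64.3 to 71.3 and 58.9 to 59.9 CPM in untreated and treated parental cells and 52.5 to 54.6 and 50.3 to 53 CPM in knockout cells. Endothelial markers were called at 0 of 4 tested by edgeR, DESeq2 and limma voom, 1 at an unadjusted p under 0.05. Their sum was 97.2 to 102 CPM in treated parental and 34.6 to 38.7 CPM in treated knockout cells, mostly from Cdh5 at 75.6 and 75.6 CPM and 7.23 and 6.15 CPM, while Cldn5, Emcn and Sox17 were at 0 in all libraries. The part of such cells in these results was not tested.

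Genes of stress, iron and presentation lists were called singly. Atf5, a stress transcription factor, fell from 73.2 and 92.4 to 60.2 and 58.4 CPM and from 128 and 112 to 34.1 and 39.1 CPM (difference -1.24, SE 0.18, adjusted p = 0.00505), and Cebpb, a transcription factor of inflammation and stress, fell less in knockout cells (difference 0.74, adjusted p = 0.043). Exons of Tmem189 on the opposite strand cover 20.7% of those of Cebpb. They were the called members of 31 genes of the unfolded protein and ATF4 response. Of 24 iron handling genes, Lcn2, which binds bacterial iron carriers, fell from 20.2 and 26.4 to 2.76 and 3.87 CPM and from 39.8 and 43.9 to 1.47 and 1.11 CPM (difference -2.19, SE 0.32, adjusted p = 0.00553). Steap4, a metalloreductase, rose from 9.33 and 5.62 to 19 and 26.4 CPM and from 22.6 and 14.9 to 163 and 155 CPM (difference 1.497, SE 0.33, adjusted p = 0.0425). Tfrc, the transferrin receptor, fell by 0.38 in parental and by 0.74 in knockout cells and was not called (-0.37, -0.71 to -0.03). Erap1, a peptidase of antigen presentation, differed by -0.70 (adjusted p = 0.036), the 1 called gene of 14 in its list, and Cast covers 11.5% of its exonic bases on the opposite strand. Lcn2 lost the call without the second treated knockout library (0.0571). Cebpb lost it without 6 libraries (all but the first untreated parental and second untreated knockout library, up to 0.203), Steap4 without 6 (all but the second untreated parental and first untreated knockout library, and also with a minimum count of 50 and with DESeq2, up to 0.182), and Erap1 without 5 (the second untreated and both treated parental, the first untreated and second treated knockout library, up to 0.192).

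Lipid lists held few called genes. Me1, malic enzyme, a source of NADPH for fatty acid synthesis, was the 1 called of 30 genes of fatty acid and glycerolipid synthesis. It fell from 692 and 669 to 198 and 195 CPM and from 314 and 371 to 151 and 163 CPM (difference 0.66, SE 0.13, adjusted p = 0.0264), and 22.9% of its 50-base sequences occur in Gm7049 and Gm7329. Cers6, a ceramide synthase, was the 1 called of 19 sphingolipid genes. It rose from 72.6 and 92.6 to 126 and 120.3 CPM in parental cells and had no called change in knockout cells, at 114 and 120.4 CPM and 98.7 and 99.4 CPM (difference -0.82, adjusted p = 0.0214). Ptgs2 was the 1 called of 27 ferroptosis genes. Gpx4, the glutathione peroxidase that protects membrane lipids, showed -0.18 (-0.60 to 0.24), and 34.7% of its 50-base sequences occur elsewhere. Me1 lost the call without any treated library or the first untreated library of either line (up to 0.136), and Cers6 without any treated library (up to 0.119).

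Peroxisome genes (32 tested), cholesterol synthesis and uptake (28), NRF2 targets and glutathione genes (30), glycolysis and hypoxia genes (29), replication and mitosis genes (35), interferon response genes (32) and NF-kB genes (19) had 0 called members by edgeR. The numbers at an unadjusted p under 0.05 were 7, 3, 5, 5, 4, 5 and 2, beside 2032 of all 14641 genes tested. DESeq2 called 1 peroxisome, 1 NRF2 and 1 glycolysis gene and none in the other 4 lists, and limma voom called 0 in all 7. The intervals of 21 of the 35 replication and mitosis genes lay within 0.5 of 0, against 0 of the 32 interferon response genes. Of 25 G1 cyclins, CDK inhibitors and p53 targets 1 was called: Cdk6, the kinase of the G1 phase, fell in knockout cells from 1851 and 1456 to 920.3 and 823 CPM and had no called change in parental cells, at 1207 and 1125 CPM and 1063 and 1066 CPM (difference -0.79, adjusted p = 0.0299). Without any treated library, the second untreated parental or the first untreated knockout library that call was lost (up to 0.192). The 7 mitochondrially encoded genes tested had a median of -0.55 with 0 called by edgeR, DESeq2 or limma voom and 0 at an unadjusted p under 0.05.

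**Figure D5:**
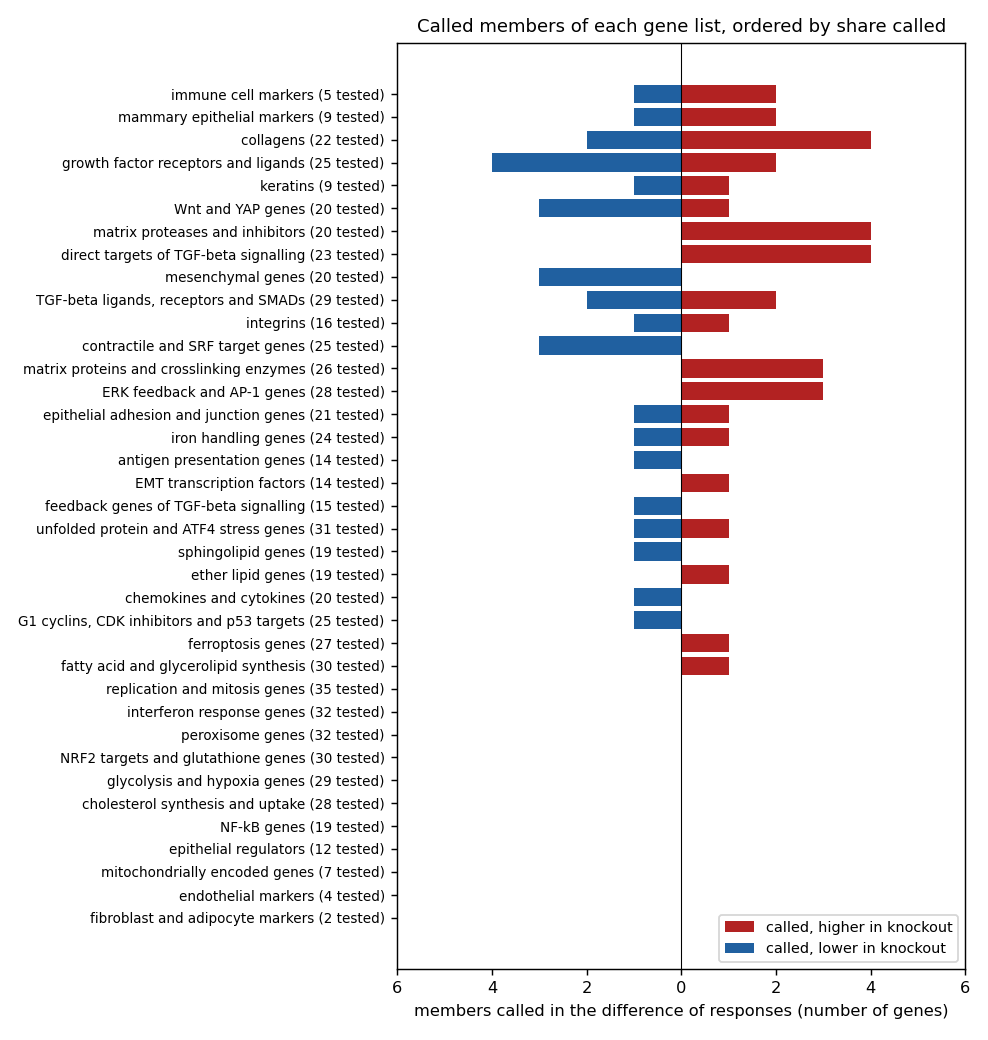
Number of called members of each of the 37 gene lists, higher to the right in red and lower to the left in blue, with the number tested in brackets and the lists ordered by the share called. Growth factor genes and collagens hold 6 called members each, direct targets and proteases 4 on the higher side only, contractile and mesenchymal genes 3 on the lower side only, and 11 lists none.

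Across all lists 722 of 923 genes were tested. The lists were chosen with earlier results of these data known, so their counts describe these lists only. They are to be read beside the 2.4% called over all genes. For lists in which most genes responded to TGF-β, nearer shares are the 4.59% of genes called in at least 1 line and 6.22%. The latter is the share among genes called in both lines in the same direction with a change of at least 1 in each.

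Among the largest positive differences, F13a1, coagulation factor XIII subunit A, rose from 1.05 and 0.469 to 19.3 and 21.8 CPM in parental and from 0.0483 and 0.278 to 69.7 and 74.2 CPM in knockout cells (difference 3.99, SE 0.61, adjusted p = 0.00678). The call was lost without the first untreated parental library (adjusted p = 0.0573). Cd93, a C-type lectin receptor, had 3 counts in the 2 untreated knockout libraries and 45 in the parental ones, and reached 14.8 and 10.9 CPM in knockout and 19.5 and 19.7 CPM in parental cells with TGF-β, so its difference was called (adjusted p = 0.0124) but its fold is not given. It lost the call without the first untreated knockout library (0.0604). Add2, a membrane skeleton protein, rose from 3.53 and 2.05 to 72.3 and 72.5 CPM and from 0.580 and 0.278 to 76.3 and 82.8 CPM (difference 2.84, SE 0.39, adjusted p = 0.00359). Sprr1b, a cornified envelope protein, was far lower in knockout cells in both states, at 1.01 and 1.30 CPM and 12 and 11.6 CPM beside 106 and 60 CPM and 131 and 133 CPM, and rose more there (difference 2.67, SE 0.39, adjusted p = 0.00541).

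A further 3 genes of this group fell with TGF-β, and fell less in knockout cells. Ddc, aromatic amino acid decarboxylase, went from 18.9 and 21.8 to 0.477 and 0.715 CPM in parental and from 17 and 14.2 to 4.30 and 4.82 CPM in knockout cells (difference 3.32, SE 0.32, adjusted p = 0.000518). Ffar4, a receptor of long chain fatty acids, went from 14.4 and 12.8 to 0.212 and 0.358 CPM and from 14.6 and 17.4 to 1.72 and 2.72 CPM (difference 2.72, SE 0.46, adjusted p = 0.0116). Serpina1a, an antitrypsin gene of a mouse gene family, went from 24.8 and 30.1 to 0.318 and 0.596 CPM and from 30.5 and 29.8 to 1.77 and 3.27 CPM (difference 2.32, SE 0.45, adjusted p = 0.0233). The untreated lines were not called different for any of the 3. Of the 50-base sequences of Serpina1a 57.6% occur in other genes, mainly its relatives, so its own level is uncertain. Ffar4 lost the call without the first treated parental or second treated knockout library (up to 0.106), and Serpina1a with limma voom and without either treated parental or the second treated knockout library (up to 0.182).

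Among the largest negative differences, Aldh1a1 (chr19:20492715-20643465), which makes retinoic acid from retinal, had the lowest adjusted p. It was at 98.4 and 121 CPM and 109.6 and 108 CPM untreated, not called different, and fell to 28.4 and 30.5 CPM in parental and 2.98 and 3.49 CPM in knockout cells (difference -3.18, SE 0.19, interval -3.59 to -2.77, adjusted p = 3.62e-05). Timd2, a receptor of the TIM family, fell from 46.1 and 55.7 to 9.27 and 10.9 CPM and from 92.2 and 93.8 to 2.02 and 2.44 CPM (difference -3.05, SE 0.21, adjusted p = 0.000118). The gene given as ccdc198 fell from 47.2 and 51.8 to 3.02 and 3.52 CPM and from 41.4 and 44.6 to 0.506 and 0.499 CPM (difference -2.48, adjusted p = 0.00101). Fhl1, a LIM domain protein of muscle, fell from 22.2 and 37.2 to 7.53 and 8.58 CPM and from 8.45 and 15 to 0.354 and 0.443 CPM (difference -2.98, adjusted p = 0.0248), with the call lost under limma voom and without any treated library (up to 0.177). Ugt2b36, a glucuronosyltransferase, fell to 2 counts in the 2 treated knockout libraries and 47 in the treated parental libraries, from 1367 and 1699 untreated (adjusted p = 0.0167, lost under limma voom and without the second treated parental or either treated knockout library, up to 0.145). Slc13a2os, an antisense transcript, had no called change in parental cells, at 12.3 and 12.2 CPM and 17.6 and 14.8 CPM, and fell from 3.14 and 3.29 to 0.607 and 0.222 CPM in knockout cells (difference -3.31, adjusted p = 0.00145). Its partner Slc13a2 covers 17.4% of its exonic bases on the opposite strand.

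Among genes that changed in opposite directions, Gcnt1, which branches O-linked glycans, fell from 68.8 and 62.7 to 19.5 and 17 CPM in parental cells and rose from 25.3 and 31.6 to 43 and 38.1 CPM in knockout cells. The order of the lines turned with treatment, without overlap in either state (difference 2.36, SE 0.19, adjusted p = 0.000134). Tnfaip8, a regulator of cell death, fell from 56.9 and 55.5 to 31.2 and 29.3 CPM and rose from 61.3 and 60.8 to 75.7 and 82.2 CPM (difference 1.27, SE 0.13, adjusted p = 0.000776), with 12.7% of its exonic bases under an opposite-strand gene. Tm4sf4, a tetraspan membrane protein, fell from 459.7 and 452 to 344 and 329.7 CPM and rose from 222 and 201 to 368 and 428 CPM (difference 1.35, SE 0.13, adjusted p = 0.000555). Mpp2, a scaffold protein, and Chst8, a sulfotransferase, gave 1.25 (adjusted p = 0.0017) and 0.97 (adjusted p = 0.0111, lost without the first treated parental or second treated knockout library, up to 0.0841). Plat, described above, is the other of the 6 named in this direction.

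In the other direction, beside Ppbp and Synpo, Malat1, a nuclear long noncoding RNA, rose from 561 and 646 to 998 and 876 CPM in parental cells and fell from 1030.0 and 758 to 598 and 565 CPM in knockout cells (difference -1.26, SE 0.19, adjusted p = 0.00732). Kmt2a, a histone H3 lysine methyltransferase, rose from 78.2 and 77.7 to 114 and 122 CPM and fell from 168 and 137 to 119 and 112 CPM (difference -0.997, SE 0.15, adjusted p = 0.00582). Kansl1l rose from 30.3 and 30.5 to 43.9 and 42.2 CPM and fell from 35.5 and 37.9 to 26.9 and 24.9 CPM (difference -1.01, SE 0.14, adjusted p = 0.00477), and Gm38162 and Rpe cover 25% of its exonic bases on the opposite strand. Ston1, an endocytic adaptor, differed by -0.80 (adjusted p = 0.00865). Malat1 and Kmt2a lost the call without the second treated knockout library (0.068 and 0.0566), and Ston1 without that or the second treated parental library (up to 0.0609).

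Genes called lower were longer than coding genes at large, while genes called higher were near them. All called genes responded in at least 1 line, and the lengths of responding genes as a whole were not compared. Of the 157 protein-coding genes called lower, 40 (25.5%) had at least 10000 annotated exonic bases, against 17 of 170 called higher (10.0%) and 10.1% of all 11907 coding genes tested. The median exonic length was 6206 bases in genes called lower, 4697 in genes called higher and 4516 over all. Genes of that length held 14.5% and 14.8% of the CPM in untreated parental libraries, 16.8% and 17.1% in treated parental, 16.1% and 15.9% in untreated knockout and 17.5% and 16.8% in treated knockout libraries. The median difference of the 1199 long genes was -0.11, beside 0.02 for all coding genes. The part of transcript length in the result was not tested.

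Alike responses can be stated only where the interval is narrow. It lay within 0.5 of 0 for 4025 of the 14641 genes (27.5%). Among the 2010 genes called in both lines in the same direction with a change of at least 1 in each, that held for 158 (7.86%), and 125 (6.22%) were called different. The median distance from the estimate to the end of its interval was 0.995 in those genes and 0.458 over all genes, so for most strongly responding genes neither a difference nor likeness could be shown with 2 libraries a group. Of 705 genes that changed by at least 3 in both lines, those with the tightest intervals around 0 were named. The stonin gene Ston2 went from 192 and 195 to 20.3 and 22 CPM and from 211 and 232 to 20.8 and 22.7 CPM (-0.15, -0.45 to 0.15). Wnk4, a kinase of ion transport, changed by -3.12 and -3.14 in the 2 lines (-0.02, -0.40 to 0.37), and Pls1, an actin bundling protein, by -3.58 and -3.57 (0.01, -0.47 to 0.49). Spsb1 rose by 3.99 and 3.87 (-0.11, -0.47 to 0.25) and Parvb, an adaptor of integrin adhesions, by 3.39 and 3.67 (0.28, -0.02 to 0.58). Itga5, given above, completes the 6. The interval of Parvb passes 0.5, and those of the other 5 lie within 0.5 of 0.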

How the data were processed

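Polyadenylated RNA of 8 libraries was analysed, 2 in each of 4 groups taken from the labels. The authors deposited whole raw counts per gene, made per the submitters' processing notes with STAR 2.7.1a and featureCounts 1.6.2 on GRCm38. No source used here gives the annotation release or whether counting used strand. A deposited table of normalized values was not used.

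Genes were kept with filterByExpr (minimum count 10), libraries were scaled by TMM, and a quasi-likelihood model of edgeR 4.0.16 in R 4.3.3, with a mean per group and 4 residual degrees of freedom, gave the difference of responses and the 4 comparisons beside it, each adjusted by Benjamini-Hochberg over 14641 genes. The depth of 17007268 to 21311831 counts per library limits genes of low level. A count of 0 allows up to 3 counts, for counting error only, and no fold is given for a group with 3 or fewer counts. Intervals are at 95%. The procedure was tested on simulated counts. Alternatives were RLE and upper quartile scaling, no filter, a minimum count of 50, DESeq2 1.42.0, limma voom 3.58.1, a replicate block, leaving out each library, a size of 1 and a threshold of 0.01.

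Named genes are the 12 largest positive and negative called differences at a mean log2 CPM of at least 3, the 6 genes of lowest adjusted p changing in opposite directions each way at that level, up to 4 called members of each of 37 lists at a mean log2 CPM of at least 1, a set of 12 key genes, and the 6 genes changed by at least 3 in both lines with intervals nearest 0. Some genes that this rule names are not reported here, though the list counts hold them. The comparison, lists and rule were chosen with earlier results of these data known. Positions, exonic lengths, overlaps and shared 50-base sequences are from GENCODE M21 on GRCm38, and upstream sequences are from RefSeq (GRCm38.p6).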

Additional observations from a re-analysis of the deposited data

Results flagged for a closer look

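The 352 genes called in the difference of responses are singled out because the difference between the lines was itself tested and passed. Their named members follow, by the state in which the lines were called apart. All values are differences of responses on the log2 scale, knockout minus parental.

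Where the lines were called apart only with TGF-β, the positive differences were 3.32 for Ddc, 2.72 for Ffar4, 2.68 for Mmp10, 2.68 for Fgf2, 2.32 for Serpina1a, 1.27 for Tnfaip8, 1.22 for Tgfbr1, 0.97 for Hmga2, 0.74 for Cebpb and 0.52 for F11r. The negative differences in that state were -3.18 for Aldh1a1, -3.12 for Megf6, -2.90 for Ddr2, -2.61 for Tinag, -2.48 for ccdc198, -2.11 for Cnn1, -1.67 for Csf1r, -1.59 for Itgb6, -1.54 for Fst, -1.47 for Wnt9a, -1.34 for Perp, -1.24 for Nrg1, -1.01 for Kansl1l, -0.85 for Tpm1, -0.80 for Ston1, -0.72 for Cdh2, -0.70 for Erap1 and -0.59 for Cnn2.

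Where the lines were called apart only before treatment, the positive differences were 3.01 for Ptgs2, 2.84 for Add2, 2.05 for Col6a1, 1.35 for Fosl1, 1.35 for Tm4sf4, 1.14 for Fbln2, 1.12 for Spp1, 1.08 for Ltbp1, 1.05 for Muc1, 1.02 for Wnt7b, 0.995 for Ier3, 0.97 for Cd14, 0.90 for Col27a1, 0.84 for Ier2, 0.65 for Krt8 and 0.60 for Itgb4. The negative differences were -1.56 for Btc, -1.22 for Tnc, -0.997 for Kmt2a, -0.82 for Cers6, -0.79 for Cdk6 and -0.69 for Tgfb2.

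Where the lines were called apart in both states in the same order, the positive differences were 2.67 for Sprr1b, 1.99 for Timp1, 1.501 for Plat, 1.497 for Steap4, 1.09 for Col15a1, 0.73 for Agps and 0.66 for Me1. The negative differences were -4.64 for Ppbp, -3.31 for Slc13a2os, -2.98 for Fhl1, -1.98 for Fzd1, -1.69 for Wnt4, -1.38 for Ccl20 and -0.65 for Krt7. Cd93 and Ugt2b36 belong here too and are given as counts, with 3 counts of Cd93 in the 2 untreated knockout libraries and 2 counts of Ugt2b36 in the 2 treated knockout libraries.

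Where the order of the lines turned with treatment, the positive differences were 3.99 for F13a1, 2.36 for Gcnt1, 1.25 for Mpp2 and 0.97 for Chst8. The negative differences were -3.05 for Timd2, -2.89 for Col4a3, -2.55 for Col4a4, -2.44 for Synpo, -2.19 for Lcn2, -1.26 for Malat1, -1.24 for Atf5 and -0.90 for Fgfr2.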

How the results depend on the processing

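The number of called genes depended on the filter, the block and single libraries more than on the scaling or the tool. RLE scaling gave 351, upper quartile scaling 358, a minimum count of 50 gave 339, limma voom 314 and DESeq2 482 called genes, of which 346, 333, 332, 297 and 339 were among the 352. These scalings moved the median difference of all genes to between -0.02 and 0.02. With DESeq2 95 genes responded only in knockout cells and 148 were called apart only untreated.

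With no filter beyond 1 count, 30946 genes were tested and 855 called (469 higher, 386 lower). Of these 46 changed in opposite directions, 272 and 203 in the same direction more and less in knockout cells, and 151 and 177 only in parental or knockout cells. The lines were called apart for 249 only untreated, for 351 only with TGF-β, for 143 in both states in the same order and for 82 with the order turned. For Smad7 the p-value of this fit did not reflect the spread of its libraries, so calls made with no filter only are uncertain. A size of at least 1 left 204 genes (109 higher, 95 lower), and a threshold of 0.01 left 100 (55 higher, 45 lower).

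Replicate numbers are shared between groups, but the labels state no block, so the main fit took no pairs. Deviations of same-numbered libraries correlated at 0.022 to 0.308, all positive. The first library held the larger mitochondrial share in every group: 3.37% and 2.37% in untreated parental, 4.31% and 3.8% in treated parental libraries. In knockout libraries the shares were 3.46% and 2.8% untreated and 3.96% and 2.36% treated. A batch shared by same-numbered libraries was not tested. A fit with the replicate number as a block called 679 genes, all 352 among them (349 higher, 330 lower). Its classes held 53 opposite, 236 larger and 159 smaller in knockout, 106 parental only and 125 knockout only, and its gaps 190 untreated only, 294 with TGF-β only, 109 in the same order and 77 turned.

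Leaving out 1 library at a time gave 110 to 401 called genes, 53 to 223 higher and 48 to 183 lower. The classes ranged over 12 to 35 (opposite), 41 to 140 (larger in knockout), 23 to 83 (smaller), 11 to 81 (parental only) and 12 to 82 (knockout only). The gaps ranged over 30 to 122 (untreated only), 48 to 181 (with TGF-β only), 15 to 59 (same order) and 15 to 50 (turned). The lines with TGF-β differed in 1169 to 2910 genes, and 2299 to 3373 genes had intervals within 0.5 of 0. The other called counts stayed within 1.5 times. These fits have fewer samples, and the cause was not tested otherwise. For the named genes 1193 of the alternative values kept their side of the threshold, 195 fell short of it, 7 passed it newly (Acta2, Fn1, Smad7 and Zeb2 with no filter, Smad7 without the second untreated parental library, Acta2 and Zeb2 without the first treated knockout library) and 0 of the called genes reversed.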

Other observations

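Genes below were chosen after their values were seen, so they are values with no test of a group. Several genes that mark liver and intestinal epithelium fell with TGF-β in both lines and less in knockout cells. Hnf4a, a transcription factor of these tissues, went from 204 and 169 to 30.4 and 40.3 CPM in parental and from 185 and 176 to 119.8 and 129 CPM in knockout cells (difference 1.87, SE 0.19, adjusted p = 0.000555). Rbp4, the plasma carrier of retinol, went from 438 and 465 to 22.2 and 24.4 CPM and from 405 and 451 to 66.8 and 79.7 CPM (difference 1.73, adjusted p = 0.000302). The differences were 1.96 for the haem carrier Hpx, 1.75 for the brush border cadherin Cdhr5, 1.19 for its myosin Myo7b, 1.12 for the liver pyruvate kinase Pklr and 0.88 for villin, Vil1, all called. Other genes went the other way: Mttp, which loads lipid onto apolipoprotein B, differed by -1.03 and the endocytic receptors Cubn and Lrp2 by -1.55 and -2.70. Foxa2 (0.30) and Cdx2 (1.03) were not called.

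A set of large genes of chromatin and protein turnover had negative differences: beside Kmt2a these were Kmt2d (-0.95), Kmt2c (-0.86), Dnmt3a (-0.74), Trrap (-0.66), Huwe1 (-0.54) and Ncoa6 (-0.53). Huwe1 was at 609.6 and 629 CPM in untreated and 605 and 638 CPM in treated parental cells, and at 979.6 and 889 CPM and 636 and 654 CPM in knockout cells, so the untreated knockout libraries stood above the others. Ep300 (-0.23), Crebbp (-0.42) and Setd1a (0.10) were not called.

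Tissue factor, F3, which starts coagulation, rose from 212 and 170.1 to 522 and 526 CPM and from 70.6 and 95 to 617 and 463 CPM (difference 1.25, adjusted p = 0.0173). Notch1 fell from 7.91 and 6.502 to 1.33 and 1.25 CPM in parental cells and from 17.1 and 11.1 to 0.202 and 0.388 CPM in knockout cells (difference -3.09, adjusted p = 0.0127).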
